A study of Mus musculus
Mus spretus with 18 samples.

Results

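Skipped exon (SE) events whose alternative exon is 300 bp or longer were examined in F1 hybrids between 2 mouse species. An SE event is an internal exon with the exons on its left and right, and its percent spliced in (PSI) is the fraction of transcripts that hold the exon. The members are the autosomal events with an exon of at least 300 bp and at least 20 junction reads in both replicates of 2 or more tissues. There were 1881 such events among 47963 autosomal events that met the same minimum of reads (3.92%), and they covered 1636 distinct exons in 1447 genes. A further 2168 long autosomal events of the tables did not reach that number of reads and are not described. Some exons belong to several events that differ in the flanking exons, so events of 1 exon share reads.

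The RNA sequencing libraries came from cerebral cortex, heart, kidney, lung, spleen and liver of female F1 mice aged 8 weeks, with a C57BL/6J mother and a SPRET/EiJ father, and from embryonic stem cells (ESC) of the same cross. The mother's strain is a common inbred line of Mus musculus, and the father's an inbred line of the wild species Mus spretus. Each tissue had 2 replicates, which gives 14 libraries. The organs came from the same animals, with the liver reads made in an earlier study, and the ESC from 2 independent clones. The labels of the liver libraries name the strains C57BL/7J x SPRET/EiJ and C57BL/8J x SPRET/EiJ, whereas all other libraries are labelled C57BL/6J x SPRET/EiJ. A fibroblast cell line of the F1 cross was treated for 4 h with 0.1 µM pladienolide B, with DMSO as control, in 2 libraries each. Nothing in the sources says whether these were separate cultures, so p-values there measure the spread between libraries only.

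Most internal exons of mammals are short, because the splicing machinery pairs the splice sites across the exon, and long internal exons are an exception to this exon definition. A long cassette exon can carry a whole protein region, such as the mucin-like stretch of a proteoglycan, the tail of an ankyrin or a repeat region of a cytoskeletal linker, so that its inclusion changes the size of the protein by much. Pladienolide B binds the SF3B complex of the U2 snRNP, which recognises the branch point upstream of an exon.

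Junction reads per library summed to between 46558287 and 129496306 over all SE events in the tissues, of which between 569510 and 1437018 belonged to the long exons, and to between 129067054 and 151755602 in the fibroblasts. All 28 marker genes chosen for the 7 tissues had their highest transcript level in the labelled tissue. The order of the alleles in the tables was checked on imprinted genes, whose expressed parental copy is known. The higher allele was the known one in 24 of 24 pairs of gene and organ, but in 2 of 6 genes in ESC, so the allele order in ESC rests on the study's description. Replicates stood apart most in ESC. Among the long exons with a PSI between 0.1 and 0.9 in both replicates, the median difference between replicates was 0.113 in ESC, against 0.0361 to 0.0474 in the organs.

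The long exons ranged from 300 to 9310 bp, with a median of 506 bp and quartiles at 369 and 858 bp. Of the 1881 events, 923 had an exon of 300 to 499 bp, 573 of 500 to 999 bp and 385 of 1000 bp or more. The current gene symbol was found in RefSeq for the genes of 1864 events, and 98.5% of these were protein-coding. In 139 events an intron of another event lay inside the exon, so that these exons are themselves spliced in part of the transcripts. A total of 265 events were measured in all 7 tissues and 677 in only 2 of them. The median depth was 416 junction reads per event and library.

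The 3 longest exons belonged to Cmya5, which encodes a large muscle protein (9310 bp), Map1a, a microtubule-associated protein of neurons (8104 bp), and Pclo, a scaffold of the presynaptic active zone (7427 bp). They were included almost always. The Cmya5 exon had a PSI of 0.999 in both heart libraries and of 0.917 and 0.938 in cortex, the Map1a exon of 0.998 and 0.999 in cortex and of 0.962 and 1 in heart, and the Pclo exon of 1 and 0.991 in cortex and of 0.933 and 1 in kidney. None of them differed between its tissues by the test given below, and Cmya5 and Pclo had too few skipping reads to be tested. At the lower end, the 3 exons of exactly 300 bp that came first in order were those of Pip5k1c, Cpsf2 and Elf1, and exons of 299 bp just outside the limit were those of Cfap410 and Pcnx3. The PSI of these 5 exons was 0.947 or more in every library.

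Most long exons were close to constitutive. The mean PSI was above 0.9 in every measured tissue for 1421 events (75.5%) and below 0.1 in every tissue for 36, which leaves 424 events (22.5%) that were alternative in at least 1 tissue or changed between the extremes. By the largest difference in mean PSI between any pair of tissues, 1528 events spanned less than 0.1, 154 between 0.1 and 0.2, 66 between 0.2 and 0.3, 79 between 0.3 and 0.5, and 54 spanned 0.5 or more. The latter were 2.87% of the long exons and 2.81% of all events. The share of long exons with a PSI of 0.9 or less was 19.1% in both kidney and ESC and 24.7% in heart, where all events together gave 19.0%, 18.4% and 24.5%.

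The first question was which long exons are spliced differently between tissues. Inclusion against skipping reads were tested with a quasi-binomial model over the 7 tissues, and an event was called with an adjusted p below 0.05 and a difference of at least 0.1 between its highest and lowest tissue. At least 10 reads of each form were needed, which 580 long exons did not have. Among all events tested, 11.4% were called. Among the 1301 long exons tested 185 were called, in 162 genes, which is 14.2% of those tested and 9.84% of all long exons. The filter on both forms removes exons that are never skipped, so the first share does not speak for all members. In bulk tissue, a different mix of cell types and a different splicing within the same cells cannot be told apart.

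Cortex was the tissue of highest inclusion in 58 of the 185 called events (31.4%), followed by ESC with 28, kidney with 25, heart with 23, liver with 20, spleen with 16 and lung with 15. Over all called events, cortex was highest in 32.5%. The lowest tissue was heart in 42 of the long exons (22.7%), cortex in 36 (19.5%) and ESC in 31, whereas over all called events heart was lowest in 15.7% and cortex in 26.5%. Not every event was measured in every tissue, and among the 185, between 108 in liver and 158 in cortex were.

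The 20 long exons with the largest differences, counting 1 exon per gene with at least 50 reads in each library of the highest and lowest tissue, spanned between 0.709 and 0.972. All had an adjusted p of at most 8.15e-06. Their lengths ran from 300 to 2976 bp, 5 were of 1000 bp or more, and 17 had a length that is a multiple of 3, which keeps the reading frame. Cortex was the highest tissue in 7 of them and the lowest in 5. Each of the 20 remained called in every alternative that measured both its highest and its lowest tissue.

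**Figure D1:**
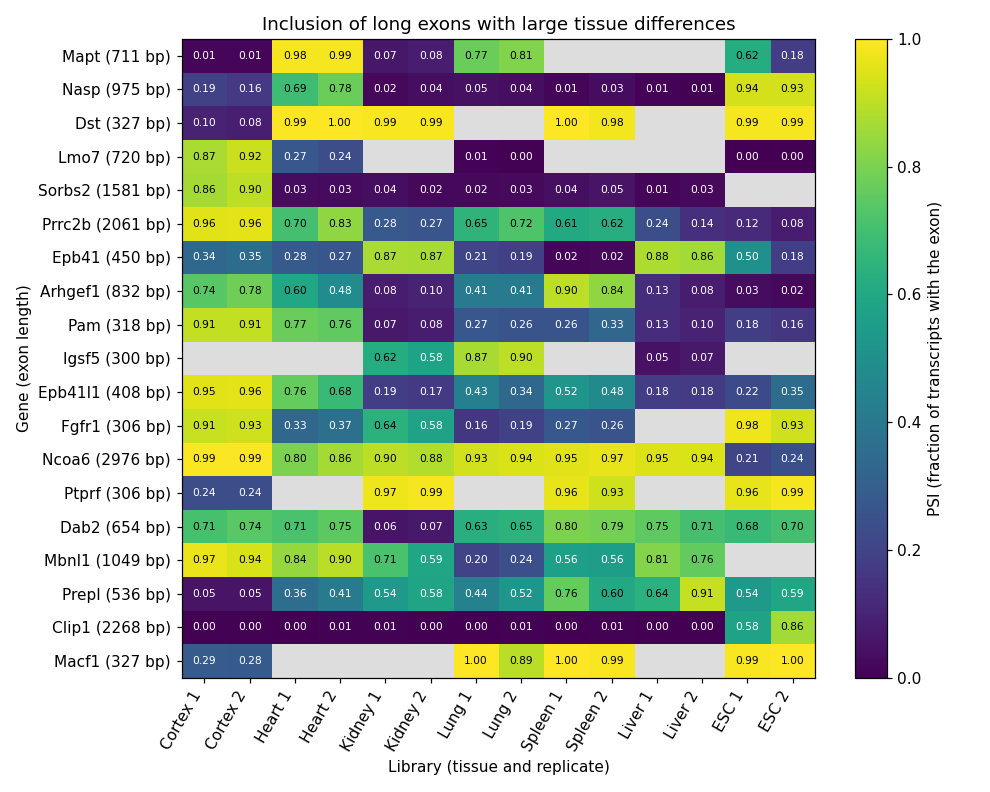
Heat map of the PSI of 19 of the 20 long exons with the largest tissue differences (rows, with exon length in bp) in the 14 libraries (columns, replicates side by side). Colour and printed value give the PSI from 0 to 1, and grey marks tissues with fewer than 20 reads in a replicate. Clip1 stands out in ESC, Sorbs2 and Lmo7 in cortex, Dab2 is low in kidney and Ncoa6 is low in ESC, and the replicates of ESC differ most for Mapt, Epb41 and Clip1.

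The largest span was that of a 711 bp exon of Mapt, the gene of the microtubule-binding protein tau, on chromosome 11 (mm10, 104298546 to 104299256, plus strand). The longer tau protein with this exon is known from peripheral nerve. Its PSI was 0.014 and 0.0148 in cortex, 0.066 and 0.0784 in kidney, 0.774 and 0.812 in lung, 0.985 and 0.987 in heart, and 0.617 and 0.18 in the ESC clones. Cortex and heart thus used opposite forms, with an adjusted p of 8.15e-06 over the 5 tissues measured. The transcript level of Mapt was highest in cortex, with 213 and 235 TPM (transcript copies scaled to a fixed sum per library), against 43.0 and 42.4 in heart.

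Other cytoskeletal linkers showed patterns of their own. Dst and Macf1 encode spectraplakins, which join actin to microtubules, and each has a 327 bp exon that, among the tissues measured, was mostly skipped in cortex alone. For Dst (chromosome 1, 34249804 to 34250130), the PSI was 0.1 and 0.0848 in cortex and 0.981 or more in every library of heart, kidney, spleen and ESC. For Macf1 (chromosome 4, 123397094 to 123397420), it was 0.289 and 0.283 in cortex and 0.895 or more in lung, spleen and ESC. Both were called, with adjusted p of 1.08e-09 and 4.09e-08, and in neither did a cortex library overlap with any other.

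Epb41 and Epb41l1, listed in the files as Epb4.1 and Epb4.1l1, encode band 4.1 proteins that tie the membrane to spectrin and actin. The 450 bp exon of Epb41 had a PSI of 0.874 and 0.87 in kidney and 0.878 and 0.861 in liver, but of 0.0151 and 0.0224 in spleen. In cortex it was 0.337 and 0.352, in heart 0.283 and 0.267 and in lung 0.207 and 0.188, while the ESC clones gave 0.501 and 0.184. For the 408 bp exon of Epb41l1 the order was another, with 0.954 and 0.957 in cortex, 0.764 and 0.679 in heart and 0.186 and 0.17 in kidney. Kidney, the tissue with high inclusion of the Epb41 exon, was thus among the lowest for the exon of its relative.

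Clip1 encodes CLIP-170, which tracks growing microtubule ends. Its 2268 bp exon on chromosome 5 (123613068 to 123615335, minus strand) had a PSI of at most 0.0075 in every organ library and of 0.578 and 0.863 in the ESC clones. The adjusted p was 2.98e-07. The clones differed by far more than any pair of organ replicates, but both lay far above every organ.

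Sorbs2 encodes an actin adaptor with SH3 domains, and its 1581 bp exon (chromosome 8, 45794978 to 45796558) was included in cortex, with 0.864 and 0.9, and at most at 0.0509 in heart, kidney, lung, spleen and liver. Lmo7, a LIM domain protein of cell junctions and muscle, had a 720 bp exon with 0.872 and 0.919 in cortex, 0.27 and 0.237 in heart and at most 0.00813 in lung and ESC. The adjusted p of these exons was 3.04e-10 and 1.89e-07.

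Among receptors and enzymes of the cell surface and secretory path, Fgfr1, a fibroblast growth factor receptor, had a 306 bp exon with 0.915 and 0.926 in cortex and 0.976 and 0.928 in ESC. In lung its PSI was 0.162 and 0.193, in spleen 0.275 and 0.259, in heart 0.329 and 0.368 and in kidney 0.639 and 0.575, so that lung was lowest. The receptor phosphatase gene Ptprf had a 306 bp exon with 0.236 and 0.24 in cortex and 0.93 or more in kidney, spleen and ESC. Pam encodes the enzyme that amidates peptide hormones, and its 318 bp exon was included in cortex, with 0.907 in both libraries, and in heart, with 0.771 and 0.756, but at 0.0672 and 0.08 in kidney. The heart values rested on 23165 and 23005 reads. The 300 bp exon of Igsf5, a member of the immunoglobulin superfamily, was measured in 3 organs and had 0.87 and 0.901 in lung, 0.617 and 0.579 in kidney and 0.0478 and 0.0667 in liver.

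Dab2 is an endocytic adaptor that acts in protein uptake by the kidney tubule. Its 654 bp exon (chromosome 15, 6429296 to 6429949) had a PSI of 0.0553 and 0.0674 in kidney and between 0.626 and 0.801 in the libraries of the other tissues, with an adjusted p of 2.26e-10. Among the 7 tissues, kidney alone thus used mainly the short form, with 4888 and 6203 reads in its libraries. Arhgef1, a guanine nucleotide exchange factor of blood cells, had an 832 bp exon with 0.9 and 0.835 in spleen, 0.74 and 0.784 in cortex and 0.0323 and 0.0207 in ESC. An intron of another event lies inside this exon. Prepl, a peptidase-like gene, had a 536 bp exon with 0.0526 and 0.0522 in cortex and 0.641 and 0.913 in liver.

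The genes of nuclear and RNA-binding proteins gave 4 of the 20. Nasp encodes a chaperone of histone H1 and H3, and its 975 bp exon belongs to the form first known from testis. The PSI was 0.937 and 0.932 in ESC and 0.689 and 0.777 in heart, against 0.195 and 0.164 in cortex and at most 0.0462 in kidney, lung, spleen and liver (adjusted p = 3.05e-11). Ncoa6, a coactivator of nuclear receptors, showed the reverse, since its 2976 bp exon (chromosome 2, 155405475 to 155408450) had 0.207 and 0.243 in ESC and 0.805 or more in every organ library. Prrc2b, an RNA-associated protein, had a 2061 bp exon with 0.957 in both cortex libraries and 0.123 and 0.0818 in ESC. Mbnl1, a splicing regulator of muscle and brain, had a 1049 bp exon with 0.969 and 0.938 in cortex and 0.204 and 0.243 in lung.

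Of 17 genes with a measured long exon on a list of genes known for such exons, 11 were called between tissues. Each exon was represented by its event of most reads, and for each gene the exon with the largest tissue difference was taken. This choice favours a call. The list was drawn up with results of these data known, so this is a description. Besides Mapt, Dst, Macf1 and Sorbs2, they were Ank2, Ank3, Map4, Nin, Svil, Vcan and Wnk1. Ank2 and Ank3 encode ankyrins, which anchor ion channels to the membrane skeleton. The 6198 bp exon of Ank2 had a PSI of 0.43 and 0.447 in cortex and at most 0.0713 in heart, kidney, lung and ESC. The 2550 bp exon of Ank3 had 0.663 and 0.705 in cortex, but 0 and 0.000507 in kidney with 1201 and 986 reads. The 3180 bp exon of Map4, a microtubule-associated protein with a muscle form, had 0.485 and 0.45 in heart and at most 0.0279 elsewhere. Svil encodes supervillin, an actin-binding protein with a muscle form, and its 870 bp exon had 0.635 and 0.664 in heart and at most 0.126 in kidney, lung, spleen, liver and ESC. This call was lost in limma on log2 odds, where the adjusted p was 0.113.

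Nin, a centrosomal protein, had a 2121 bp exon with 0.215 and 0.265 in cortex and between 0.711 and 0.93 in kidney, lung, spleen and ESC. The 462 bp exon of the kinase gene Wnk1 had 0.702 and 0.774 in cortex, 0.593 and 0.623 in heart and 0.0892 and 0.0905 in kidney. In Vcan, a proteoglycan of the matrix, the 2880 bp exon had 0.825 and 0.75 in cortex and 0.161 and 0.449 in ESC, which gave an adjusted p of 0.0269. That call was lost without either cortex library, without ESC replicate 1, in limma on log2 odds and with a prior without depth trend, with an adjusted p of up to 0.18. A second Vcan exon of 5217 bp, named after its values were seen, went the other way, with 0.165 and 0.238 in cortex and 0.891 or more in heart, lung and ESC (adjusted p = 3.89e-05). The 6 genes whose exon was not called were Brca1, Fn1, Ldb3, Pdlim5, Tns1 and Ttn, and the span of their exons was at most 0.0503. The 3315 bp exon of Brca1, the DNA repair gene, had 0.987 in both ESC clones and 0.966 and 0.908 in spleen.

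A further set of called exons, chosen here after their values were seen, had 1 tissue at least 0.25 above or below every other. Cortex was so placed above the rest in 12 events and below it in 15, heart in 6 and 4, and ESC in 2 and 6. Kidney was never above and 3 times below, lung had 2 and 2, spleen none and 1, and liver 1 and 1. These are counts of events with at least 2 other tissues measured, and they have no counterpart over all events. Over all called events too, cortex was most often the highest tissue (32.5%) and most often the lowest (26.5%). Nptn encodes neuroplastin, an adhesion molecule of synapses, and its 348 bp exon had 0.537 and 0.57 in cortex, 0.122 and 0.116 in heart and at most 0.0124 in lung and ESC. Mprip, a regulator of myosin phosphatase, had a 3804 bp exon with 0.497 and 0.552 in cortex and at most 0.047 in the other 6 tissues. The 1140 bp exon of Eef1d, a translation elongation factor, had 0.287 and 0.329 in cortex and at most 0.00466 in the other 6 tissues.

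In heart, the 5916 bp exon of Naca stood out. Naca encodes a ribosome-associated chaperone subunit and, with this exon, a larger muscle protein. The PSI was 0.389 and 0.364 in heart with 10751 and 10516 reads, and at most 0.00583 in cortex, kidney, lung, spleen and ESC (adjusted p = 1.19e-11). Tacc2, a centrosome-associated gene, had a 5121 bp exon with 0.507 and 0.738 in heart and between 0.192 and 0.473 in kidney, lung and ESC. The replicates of heart and ESC lay far apart, one ESC value came close to the lower heart value, and the adjusted p was 0.0297. Smarce1, a subunit of the SWI/SNF chromatin remodelling complex, had a 422 bp exon with 0.437 and 0.382 in cortex and 0.862 or more elsewhere. Sec31a, a coat protein of vesicles leaving the endoplasmic reticulum, had a 336 bp exon with 0.495 and 0.527 in lung and 0.783 or more elsewhere.

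The PSI of an event is relative to its own flanking exons. The 2124 bp exon of Rtn3, a reticulon of the endoplasmic reticulum, occurred in 2 called events. In one event its PSI was 0.733 and 0.718 in cortex and 0.105 and 0.106 in heart, and in the other 0.216 and 0.143 in cortex and 0.00929 and 0.0158 in heart. Both put cortex above heart, though the levels differ. The 2361 bp exon of Rtn4, the related gene that encodes Nogo, a protein that limits axon growth, had 0.988 and 0.983 in cortex, 0.93 and 0.923 in ESC, 0.875 and 0.892 in heart and between 0.386 and 0.556 in the other 4 organs.

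By exon length, the share of tested events that were called did not change in 1 direction. It was 46.1% for exons of 30 bp or less, 18.9% for 31 to 60 bp, 9.47% for 61 to 299 bp and 14.2% for the long exons. Within the long exons it was 13.4% at 300 to 499 bp, 10.3% at 500 to 999 bp and 22.4% at 1000 bp or more, where 58 of 259 tested events were called. The median span of the called events was 0.363 for the long exons, 0.321 for 61 to 299 bp and 0.672 for 30 bp or less. These shares are given with no test.

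**Figure D2:**
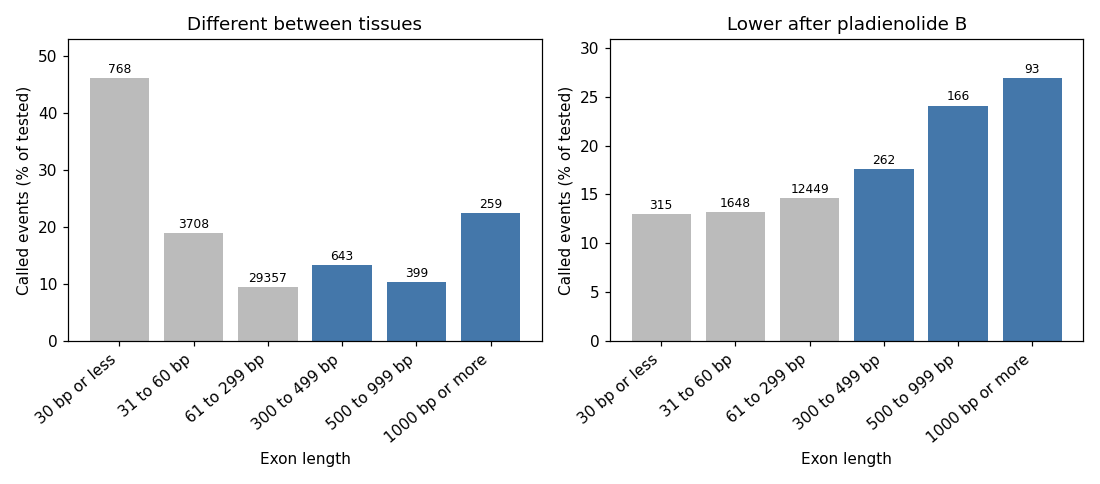
Share of tested SE events that were called (vertical axis, %) by exon length (horizontal axis), for differences between tissues (left) and for lower PSI after pladienolide B (right). Blue bars are the long exons in 3 length groups, grey bars the shorter exons, and the number over each bar is the number of events tested. Exons of 1000 bp or more reach 22.4% between tissues and 26.9% after the drug.

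The length was a multiple of 3 in 40.6% of the long exons, in 40.1% of the exons of 61 to 299 bp and in 69.3% of those of 30 bp or less. Among called events the share was 51.4% for the long exons, 53.5% for 61 to 299 bp and 87.6% for 30 bp or less. The introns beside the long exons had a median of 3446 bp upstream and 2790 bp downstream, against 2015 and 1820 bp at 61 to 299 bp. For the called long exons the medians were 2745 and 2314 bp. The host genes had a median level of 20.1 TPM over the 7 tissues, against 26.5 TPM for all events and 21.1 TPM for the called long exons.

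Gene lists are described by the share of their tested long exons that were called, with the median span beside it. That span was 0.0346 for all long exons tested and 0.0239 for all events tested. The lists were chosen with earlier results of these data known and hold several exons named above. Their shares are therefore a description only. Of the cytoskeletal scaffolds, 12 of 24 tested events were called in genes such as Ank2, Epb41l2, Map4 and Svil, with a median span of 0.361. In the list of synapse and neuronal signalling genes 8 of 12 were called, in Ank2, Ank3, Sgip1, Shank3 and Wnk1, with a median span of 0.25, and cortex was highest in 6 of the 8. Ank2 and Ank3 stand in both lists. Of the matrix and adhesion genes 7 of 14 were called, in Agrn, Col6a3, Ptprf, Tnxb and Vcan, with a median span of 0.22. The sarcomere and Z-disc genes had 5 of 14 called, in genes such as Lmo7, Sorbs2 and Tacc2, with a median span of only 0.0228.

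Of the chromatin and transcription regulators 4 of 16 tested events were called (25%), of the RNA-binding proteins 2 of 9 (22.2%), of the zinc finger genes 7 of 43 (16.3%) and of the genes of DNA repair and cell division 1 of 11 (9.09%), where 14.2% of the long exons and 11.4% of all events were. The median spans were 0.039, 0.0157, 0.0653 and 0.054. No test of these lists was made, and several events of a list can share an exon.

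The libraries of cortex, heart and kidney had been sequenced with longer reads that the authors trimmed, those of lung, spleen and ESC with shorter reads, and the liver reads came from an earlier study. In the fit of cortex, heart and kidney alone 133 long exons were called of 706 tested (18.8%, with 17.1% over all events). In the fit of lung, spleen and ESC alone 23 of 811 were called (2.84%, with 2.66% over all events). Of the 133, 114 were also called over the 7 tissues, and so were all 23. Among the 20 exons with the largest differences, both the highest and the lowest tissue lay within 1 of these read lengths for 8, and each was called there. In all, 18 of the 20 were called among the tissues of 1 read length, the exceptions being Igsf5 and Macf1. For these, read length and tissue cannot be told apart.

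The second question was which long exons differ between the C57BL/6J and SPRET/EiJ alleles of the same cells. Reads that fit 1 genome better were counted per allele, and events were kept when the PSI of all allele-assigned reads lay within 0.1 of that of all reads. A call needed an adjusted p below 0.05 and a difference of at least 0.1. In cortex, 9.02% of all tested events were called, and 23 of 205 tested long exons (11.2%). The other organs gave 14 of 230 in heart (6.09%, with 5.75% over all events), 16 of 220 in kidney (7.27%, with 7.02%), 22 of 276 in lung (7.97%, with 6.99%), 18 of 238 in spleen (7.56%, with 5.69%) and 6 of 110 in liver (5.45%, with 4.35%). These shares lie near those of all events.

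In ESC none of 294 tested long exons was called, where 0.411% of all events were. At an unadjusted p below 0.05 there were 25 long exons, and limma on log2 odds called 0. The alleles of a library come from the same animal or clone, and a replicate block for the library changed the counts. With the block 24 long exons were called in ESC (7.89% of all events), 29 in heart (10.9%), 34 in kidney (10.9%) and 35 in lung (10.7%). The remaining tissues changed less, with 24 calls in cortex (10.5% of all events), 25 in spleen (9.44%) and 9 in liver (8.41%).

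Over the 7 tissues, 63 of 686 long exons tested anywhere were called in at least 1 tissue, where 7.12% of all events were, and 109 with the block, which include all 63. Of the 63, 24 were called in 2 or more tissues, each with the same direction in all of them, and 28 were also called between tissues. These overlaps have no counterpart over all events, so they do not set the long exons apart. Since the 6 organs came from the same animals, these tissues are not independent replicates of the cross. Of the 99 calls of an event in a tissue, 76 had the higher PSI on the C57BL/6J allele (76.8%), against 56.4% over all events. With the block, 125 of 180 such calls of long exons were higher on that allele (69.4%). Among the reads that support inclusion, the share assigned to C57BL/6J had a median over libraries of 52.3% for the long exons and 50.2% for all events, and among the reads that support skipping 49.9% and 51.1%. The part of read assignment in the direction of the calls was not tested.

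**Figure D3:**
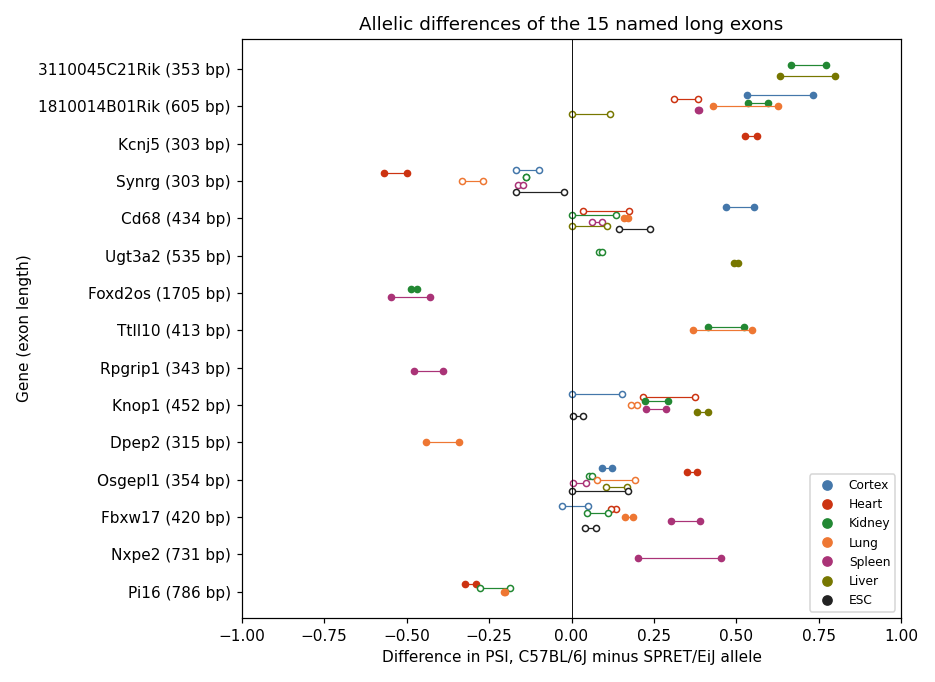
PSI of the C57BL/6J allele minus PSI of the SPRET/EiJ allele (horizontal axis) for the 15 long exons with the largest allelic differences (rows). Each colour is a tissue, the 2 points joined by a line are its replicates, and filled points mark tissues where the difference was called. Within each exon the points lie on 1 side of 0 or at 0, except for cortex in Fbxw17.

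The 15 exons with the largest differences, from a called tissue with at least 50 reads per allele and replicate, had differences between 0.306 and 0.719 in size. At the top stood a 353 bp exon of 3110045C21Rik, a gene known only by this name (chromosome 1, 169970450 to 169970802). In kidney its PSI was 0.716 and 0.824 on the C57BL/6J allele and 0.0494 and 0.0515 on the SPRET/EiJ allele, and in liver 0.884 and 0.76 against 0.0871 and 0.129. In both tissues the alleles did not overlap, with adjusted p of 0.000777 and 0.00652. The 605 bp exon of 1810014B01Rik (chromosome 10, 86688534 to 86689138) was called in cortex, kidney, lung and spleen, with differences of 0.632, 0.566, 0.527 and 0.384, of which that in cortex rested on 37 to 57 reads per allele and library. In heart the difference was 0.346 and missed the threshold, with an adjusted p of 0.0559.

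Kcnj5 encodes a potassium channel of atrial muscle that is opened by acetylcholine. Its 303 bp exon (chromosome 9, 32342222 to 32342524) was measured per allele in heart only, where the PSI was 0.532 and 0.562 on the C57BL/6J allele and 0.00576 and 0 on the SPRET/EiJ allele (adjusted p = 0.000108). The SPRET/EiJ copy was thus close to 0 in both libraries, with 329 to 498 reads behind each value. Synrg, a clathrin-adaptor-associated gene, had a 303 bp exon with 0.416 and 0.427 on the C57BL/6J allele and 0.983 and 0.925 on the SPRET/EiJ allele in heart. In cortex, kidney, lung, spleen and ESC the difference had the same sign, between -0.3 and -0.0954, and was not called. Whether heart differs from these tissues was not tested.

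Cd68 encodes a lysosomal glycoprotein of macrophages. The PSI of its 434 bp exon in cortex was 0.903 and 0.872 on the C57BL/6J allele and 0.435 and 0.319 on the SPRET/EiJ allele, a difference of 0.51. In lung the difference was 0.164 and was also called, and in spleen, where the reads were most numerous with 1592 to 2141 per allele and library, it was 0.0773 with an adjusted p of 0.0119, under the minimum size. Ugt3a2, a UDP-glycosyltransferase, had a 535 bp exon with 1 and 0.998 against 0.496 and 0.506 in liver. In kidney it had 0.999 and 0.998 against 0.917 and 0.906, which is a difference of 0.0872 at an adjusted p of 0.000715.

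Foxd2os, a noncoding gene listed as 9130206I24Rik, had a 1705 bp exon that was higher on the SPRET/EiJ allele in both tissues tested. In kidney the PSI was 0.174 and 0.23 against 0.642 and 0.717, and in spleen 0.0719 and 0.0217 against 0.5 and 0.568. The spleen values rested on 24 to 82 reads per allele and library. The 413 bp exon of Ttll10, a tubulin-modifying enzyme of the TTL family, was higher on the C57BL/6J allele by 0.469 in kidney and 0.457 in lung. Its lung values rested on 34 to 57 reads per allele and library, and an intron of another event lies inside the exon. Rpgrip1, a ciliary gene, had a 343 bp exon with 0.28 and 0.256 against 0.67 and 0.734 in spleen. Knop1, a nucleolar protein gene, had a 452 bp exon that was called in kidney, spleen and liver, with differences of 0.258, 0.256 and 0.397. The call in liver was lost without the filter on the rarer form and with a prior without depth trend.

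For the remaining exons the larger value lay on the C57BL/6J allele in Osgepl1, Fbxw17 and Nxpe2 and on the SPRET/EiJ allele in Dpep2 and Pi16. Osgepl1, a gene of mitochondrial tRNA modification, had a 354 bp exon with 0.997 and 1 against 0.648 and 0.619 in heart. Fbxw17, an F-box protein gene, had a 420 bp exon with 0.423 and 0.306 against 0.0351 and 0.00452 in spleen. The 731 bp exon of Nxpe2 in spleen, with 0.898 and 0.844 against 0.444 and 0.642, had an adjusted p of 0.0463 and lost its call with a minimum of 50 reads, in limma on log2 odds and in both other ways of setting the prior or the filter, where the adjusted p reached 0.124. Pi16, a peptidase inhibitor gene of heart and fibroblasts, had a 786 bp exon with 0.641 and 0.664 against 0.964 and 0.954 in heart, and its difference was -0.203 in lung. Dpep2, a dipeptidase, had a 315 bp exon with 0.56 and 0.659 against 1 in both libraries in lung.

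Of the 20 exons with the largest tissue differences, 4 were also called between alleles. In Lmo7 the SPRET/EiJ allele was higher in heart, with 0.361 and 0.359 against 0.155 and 0.115. In Igsf5 it was higher in kidney, with 0.883 and 0.877 against 0.622 and 0.56. The C57BL/6J allele was higher for Pam in heart and lung, by 0.136 and 0.147. For each of these the allelic difference was smaller than the span between tissues.

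The third question was how long exons respond when the splicing machinery is inhibited. Of the 1881 long exons 1138 were listed in the fibroblast table, 939 had at least 20 reads in each of its 4 libraries, and 521 could be tested. Among all events tested in fibroblasts 19.4% had a lower PSI after pladienolide B and 0.494% a higher one, together 19.9%. These events include ones that did not meet the read minimum in the tissues, which every long exon did. Among tested exons of 61 to 299 bp that met it, 14.6% fell. Of the long exons 111 fell (21.3%), in 98 genes, and 4 rose. The median difference over the tested long exons was -0.0221, and over all tested events -0.0147. Of the 111 exons, 84 had a mean PSI above 0.9 with DMSO, and 30 fell by 0.3 or more.

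**Figure D4:**
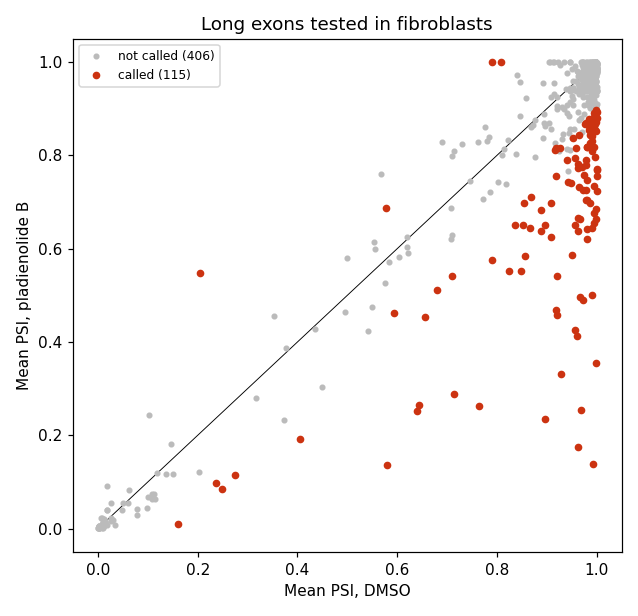
Mean PSI of the 521 tested long exons in fibroblasts with pladienolide B (vertical axis) against DMSO (horizontal axis), as means of 2 libraries each. Red points are the 115 called exons, grey points the other 406, and the line marks equal PSI. Called exons lie below the line except for 4, and most of them start near a PSI of 1.

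The share of exons that fell was larger in the longer classes. Among the events that also met the read minimum in the tissues, 13.0% of tested exons of 30 bp or less fell, 13.2% at 31 to 60 bp, 14.6% at 61 to 299 bp, 17.6% at 300 to 499 bp, 24.1% at 500 to 999 bp and 26.9% at 1000 bp or more. The last group held 93 tested events. The median difference did not follow this order, with -0.0187, -0.0307 and -0.0151 in the 3 groups of long exons. No test of this order was made.

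Spindoc, listed as AI846148, encodes a partner of the chromatin reader spindlin. Its 330 bp exon (chromosome 19, 7374521 to 7374850) had a PSI of 0.987 and 1 with DMSO and of 0.203 and 0.0762 with pladienolide B, a fall by 0.854 (adjusted p = 4.75e-09). Rnf31 encodes the catalytic subunit of the linear ubiquitin ligase complex, and its 379 bp exon went from 0.972 and 0.965 to 0.231 and 0.279. Osr2, a zinc finger transcription factor of limb and palate, had a 767 bp exon with 0.914 and 0.881 before and 0.2 and 0.271 after treatment. In none of the 3 did the treated libraries overlap with the controls.

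Genes of transcriptional regulators made up the rest of the 6 largest falls. Klf7, a Krüppel-like factor, had a 630 bp exon with 1 and 0.981 against 0.512 and 0.49. Vgll3, a cofactor of TEAD transcription factors, had a 525 bp exon with 0.976 and 0.968 against 0.494 and 0.486, which rested on 1391 to 8757 reads per library and had an adjusted p of 4.96e-12. Mga, a partner of the MAX protein, had a 624 bp exon with 0.97 and 0.87 against 0.387 and 0.531.

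The 4 exons that rose were in Zfp62, Zscan26, Pigv and Pakap, and those of Zfp62 and Pigv had under 50 reads in each treated library and are named after their values were seen. Zfp62, a zinc finger gene, had a 432 bp exon with 0.207 and 0.203 against 0.424 and 0.673. The 1122 bp exon of Pigv, a gene of the glycosylphosphatidylinositol anchor pathway, had 0.827 and 0.788 against 1 in both. Zscan26, also a zinc finger gene, had a 318 bp exon with 0.825 and 0.756 before and 1 in both treated libraries, and without pladienolide B replicate 2 its adjusted p was 0.0587. Another tested event of a Zscan26 exon of 318 bp had a mean PSI of 0.499 with DMSO and 0.579 with pladienolide B, and was not called. Pakap, listed as Gm20459, a gene that joins paralemmin and an A-kinase anchor, had a 693 bp exon with 0.548 and 0.606 against 0.694 and 0.681. That call was lost in 5 of 11 alternatives, with an adjusted p of up to 0.175. Of the zinc finger genes as a list, 7 of 15 tested events fell and 2 rose. Over all events tested in fibroblasts, with no tissue read minimum, the shares were 19.4% and 0.494%. Of the chromatin and transcription regulators 3 of 9 fell, of the RNA-binding proteins 2 of 7, of the cytoskeletal scaffolds 1 of 9 and of the sarcomere genes 1 of 3. The quasi-binomial model and limma on log2 odds both called 0 of 8 matrix and adhesion events and 0 of 3 synapse events, of which 0 and 2 had an unadjusted p below 0.05. No list was tested against another, and the lists were chosen with earlier results of these data known.

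Of the 20 exons with the largest tissue differences, 15 were measured in the fibroblast libraries and 4 of these were called (26.7%). Among the tested long exons 22.1% were called, and among all events tested in fibroblasts, with no tissue read minimum, 19.9%. The Mbnl1 exon had 0.41 and 0.399 with DMSO and 0.196 and 0.187 with pladienolide B (adjusted p = 3.01e-10), the Prepl exon 0.3 and 0.249 against 0.14 and 0.0915, and the Dab2 exon 0.981 and 0.988 against 0.839 and 0.871. The Pam exon, with 7557 to 11948 reads, had 0.617 and 0.622 against 0.625 and 0.626, and the Fgfr1 exon 0.117 and 0.118 against 0.12 and 0.119. Nasp had 0.151 and 0.143 against 0.199 and 0.164, and Clip1 0.0172 and 0.0201 against 0.0289 and 0.05. Of the exons named for their alleles, Synrg, with 1 and 0.903 against 0.517 and 0.654, and Foxd2os, with 0.284 and 0.19 against 0.103 and 0.0931, were called.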

How the data were processed

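Junction reads of each SE event were counted by the authors with rMATS (default settings) on Ensembl release 74, after alignment with HISAT2 (2.0.1 in the submitters' processing notes) to the C57BL/6J genome (mm10) and the SPRET/EiJ genome. Each read was assigned to the allele with the smaller edit distance. The deposited tables hold counts of inclusion and skipping reads per library, as lists in 1 cell, the form lengths (a score in bases), and gene levels in TPM from the authors. Their inclusion levels, p-values and FDR, and the table of retained introns, were not used. Known imprinted genes were not removed here.

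PSI was recomputed as inclusion reads per form length over the sum of both forms, with lengths of 150 and 75 in the tissues and 298 and 149 in the fibroblasts. Inclusion against skipping reads were tested in R 4.3.3 with a quasi-binomial model and an F test. Dispersions, never below 1, were shrunken with limma 3.58.1 to a trend over depth. The prior used events with at least 10 reads of the rarer form per library on average, a rule set on simulated data, because a prior from all filtered events made too many false calls there. P-values were adjusted by Benjamini-Hochberg over all autosomal events tested. Liver was compared with the other tissues although its reads came from an earlier study.

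The 2 alleles of a library share an animal or clone, so that the library pairs them. The correlation of the replicate deviations between alleles was 0.0973 in heart and up to 0.489 in ESC. The main allelic test had no such block, as in the study.

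Members and gene lists were chosen with earlier results of these data known. Exons are named by size: 1 exon per gene, the event with most reads, called and with at least 50 reads per library of the tissues or alleles compared, for the 20 largest tissue differences, the 15 largest allelic differences and up to 6 falls and rises after pladienolide B. All 17 measured genes of a list of known long exons, the 3 longest exons and exons on each side of 300 bp were added. A few exons that meet these rules are counted but not reported here. Current symbols come from RefSeq (GRCm38.p6). Junction reads are not counted by molecule, so counting error is a lower limit of the error.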

Additional observations from a re-analysis of the deposited data

How the results depend on the processing

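No called result changed direction under the alternatives run. Between tissues, 185 calls became 118 in limma on log2 odds and 23 with lung, spleen and ESC alone (this fit, and that of cortex, heart and kidney, was chosen after seeing the data). The other settings gave 133 to 215 calls, and 149 to 215 when 1 library was left out. The calls of the named exons held in 568 combinations of exon and setting between tissues and were lost in 6, all in Svil and Vcan, held in 124 and were lost in 24 between alleles, and held in 82 and were lost in 6 after pladienolide B. Allelic counts moved most. Without the filter on the rarer form cortex had 13, kidney 9, lung 12, spleen 10 and liver 3, with 39 in any tissue and 57 over all pairs of exon and tissue. Without events near a PSI of 0 or 1 they were 26 in heart, 30 in kidney, 36 in lung, 97 in any tissue and 154 over all pairs. With a difference of at least 0.2, cortex had 12, heart 6, kidney 9, lung 7 and spleen 9, with 36 in any tissue and 48 over all pairs. The replicate block gave 29 in heart, 34 in kidney, 35 in lung, 24 in ESC, 109 in any tissue and 180 over all pairs. A minimum of 50 reads gave 14 in cortex, a prior without depth trend 12 in lung, limma 12 in liver, and no filter on allelic against all reads 2 in ESC. Leaving out 1 library leaves no replicate in an allelic comparison, so these counts use the spread of the full fit and carry no check of their own. Each such fit drops a library of 1 tissue only. The totals over tissues keep the full calls of the other tissues, so they move little by design. Cortex then had 5 to 6, heart 4 to 6, kidney 0 to 1, lung 3 to 4 and spleen 1 to 2 calls, liver and ESC had 0, and there were 54 to 63 in any tissue and 80 to 99 over all pairs. After pladienolide B, 115 calls became 60 with a difference of at least 0.2 and 81 to 115 when 1 library was left out. Which part of a setting moved a count was not tested. The replicate number as a block changed little elsewhere, with 185 calls between tissues and 114 after pladienolide B. The replicate deviations of tissue pairs correlated at -0.0778 to 0.0551 and those of the treatments at 0.00657. Such values cannot show whether libraries with the same replicate number came from the same animal or culture. With 2 libraries per group and 580 long exons short of 10 reads of a form, small differences in exons that are nearly always included were not detectable at this depth.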
